A study of Homo sapiens with 16 samples.

Results

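The comparison set out here is the silencing of SEPHS1 in H9, an established line of human embryonic stem cells. Its members are the 3 libraries of the SEPHS1 siRNA group and the 4 libraries of both control siRNA groups, taken by their labels, which makes 7 of the 16 libraries of the series. All 16 come from H9 cells with an eGFP reporter under the REX1 promoter, kept in mTeSR1 on Matrigel, and all were transfected with siRNA at 30 to 50 nM. Cells of the SEPHS1 group received a pool of enzymatically prepared siRNAs (esiRNA) against SEPHS1 and were collected at 72 h. The Luciferase group (2 libraries) received esiRNA against Renilla luciferase, and the Control group (2 libraries) received a second control siRNA whose kind is not given. No harvest time is given for either control, so the time after transfection and the knockdown cannot be told apart in this comparison. The DSCC1 group (3 libraries, esiRNA against DSCC1, 72 h) was therefore set beside it where it helps. Poly(A) RNA was sequenced as 80 bp single-end reads, and the 7 libraries held 18597262 to 28662389 counts. Levels are in CPM, read counts scaled to the TMM-normalised library size. Changes are log2 fold changes with their SE, and p-values are from edgeR's quasi-likelihood test, adjusted by Benjamini-Hochberg over the 19772 genes tested. A gene is called when that adjusted p is under 0.05.

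SEPHS1 encodes selenophosphate synthetase 1. Its paralogue SEPHS2 makes selenophosphate, the selenium donor from which selenocysteine is built on its own tRNA, and that residue is then placed into selenoproteins such as glutathione peroxidases and thioredoxin reductases. SEPHS1 of animals lacks the selenophosphate activity and is known instead for its part in redox balance, and mouse embryos without it die early. H9 cells are in the primed state of pluripotency, held by POU5F1, SOX2 and NANOG, and rest on a laminin-rich matrix through integrins.

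SEPHS1 itself (chromosome 10, 13317424 to 13348298, minus strand, GRCh38) checks the labels. Its level was 381 and 404 with Luciferase siRNA and 413 and 440.5 with Control siRNA, and 79.3, 49.1 and 54.2 CPM in the SEPHS1 siRNA libraries. Every SEPHS1 siRNA library lay far below every control library, at a mean of 60.9 ± 16.1 CPM (SD, n = 3) against 409.6 ± 24.5 (SD, n = 4), or 14.9% of control. The log2 fold change was -2.75 (SE 0.14, adjusted p = 9.09e-15), and it kept its call in all 21 alternative settings, between -2.99 and -2.60. SEPHS2 (chromosome 16, 30443631 to 30446181, minus strand) was at 5.76 ± 2.45 CPM (SD, n = 3) against 5.65 ± 0.434 (SD, n = 4), which is a log2 difference of 0.03 (SE 0.38, adjusted p = 1), with a wider spread among the SEPHS1 siRNA libraries (2.99, 7.63 and 6.66 CPM) than among the controls. A smaller number of cells of one kind and less RNA per cell cannot be told apart in bulk RNA, here or below.

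A pair of processed pseudogenes of SEPHS1 fell with it. SEPHS1P4 (chromosome X, 73769248 to 73770423, plus strand) was at 5.15 and 3.76 with Luciferase siRNA and 5.36 and 6.84 with Control siRNA, and at 0.147, 1.07 and 0.409 CPM after SEPHS1 siRNA, a change of -3.23 (SE 0.59, adjusted p = 0.00163) on the log2 scale, lost with limma-voom alone. SEPHS1P6 (chromosome 2, 199659551 to 199660729, plus strand), named here after its values were seen, changed by -4.12 (SE 0.76, adjusted p = 0.00164). Both match the 1176 coding bases of SEPHS1 closely, with 95.6% identity for SEPHS1P4 and 94.6% for SEPHS1P6 over 1176 and 1181 aligned bases, and their longest runs without a difference are 87 and 117 bases, longer than an 80 bp read. The stretch below shows how alike they are. It is the 120-base window of the SEPHS1 coding sequence, bases 424 to 543, in which SEPHS1P4 differs most, read from the GENCODE release 29 transcripts, and capitals mark the 18 positions where the 3 differ.

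SEPHS1: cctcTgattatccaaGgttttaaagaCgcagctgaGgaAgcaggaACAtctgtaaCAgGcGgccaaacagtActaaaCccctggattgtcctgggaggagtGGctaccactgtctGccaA

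SEPHS1P4: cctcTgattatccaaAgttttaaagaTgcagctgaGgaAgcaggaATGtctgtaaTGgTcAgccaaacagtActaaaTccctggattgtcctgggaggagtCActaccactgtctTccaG

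SEPHS1P6: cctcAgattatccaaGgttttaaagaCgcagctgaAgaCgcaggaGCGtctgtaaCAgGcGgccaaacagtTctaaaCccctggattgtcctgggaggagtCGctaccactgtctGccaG

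In this window SEPHS1P4 has 13 differences from SEPHS1 and SEPHS1P6 has 8. How reads that fit several copies were counted is not given in the sources used here, so the values of the 2 pseudogenes are uncertain as levels of their own.

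Across all expressed genes, 303 of 19772 (1.53%) were called. Of these, 119 were higher after SEPHS1 siRNA (0.602% of genes tested) and 184 were lower (0.931%). At least 2-fold changes made up 29 of the higher genes (0.147%) and 95 of the lower ones (0.48%). The median log2 fold change of all genes was -0.02. The 3 SEPHS1 libraries all lay above the 4 controls for 5.25% of genes and all below them for 7.76%. Among called genes, the SEPHS1 libraries lay outside the control range in 114 of the 119 higher and 179 of the 184 lower. The higher set held 87 protein-coding genes and 23 pseudogenes, while the lower set held 174 protein-coding genes and 6 pseudogenes. The plot of fold change against level shows both sets over the whole range of levels. The counts depend on single libraries. Without SEPHS1 replicate 3 they were 54 higher and 81 lower, and without Luciferase replicate 2 they were 161 and 311. Called whichever single library was left out were 37 higher and 45 lower genes.

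Transcripts of primed pluripotency were abundant in both groups. Of 12 markers of pluripotent cells, 11 exceeded 1 CPM in both groups, and their summed level ran from 3040 to 3814 CPM in the controls and from 3839 to 3926 CPM after SEPHS1 siRNA. POU5F1 was at 211 ± 17.5 CPM (SD, n = 3) against 198 ± 10.7 (SD, n = 4), NANOG at 90.4 ± 11.5 CPM (SD, n = 3) against 86.01 ± 11.05 (SD, n = 4) and SOX2 at 213 ± 15.6 CPM (SD, n = 3) against 198 ± 13.7 (SD, n = 4). These 3 factors showed log2 fold changes of 0.09, 0.07 and 0.10, with adjusted p of 0.779, 0.938 and 0.772, and their ranges overlapped the controls. LIN28A (1164 to 1273 against 838 to 1055 CPM), DPPA4, L1TD1 and TERF1 lay above every control in all 3 SEPHS1 libraries. Such a position was held by 5.25% of all genes. LIN28B, TDGF1, DNMT3B and USP44 overlapped the controls. The marker that did not exceed 1 CPM was ZFP42, the gene called REX1. It had no count in any of the 7 libraries compared, although the line carries a reporter under its promoter. Markers of other lineages were scarce. The neural markers PAX6, SOX1, TUBB3, DCX and MAP2 were at most 3.12 CPM in any of the 7 libraries, and NES, which stem cells also express, made up nearly all of the neural sum of 127 to 138 CPM in controls and 96.8 to 134 CPM after SEPHS1 siRNA. The summed mesoderm markers were at 4.398 to 10.3 and 6.13 to 8.13 CPM, and the endoderm markers at 4.71 to 9.59 and 5.43 to 8.66 CPM. The trophoblast and amnion sum was 3.76 to 5.62 CPM in controls and 6.75 to 8.23 CPM after SEPHS1 siRNA. CGA was at 0 throughout and TFAP2A at 0 in all controls. CDX2 (2.45 CPM) and ISL1 (3.62 CPM) were highest in SEPHS1 replicate 3, where KRT7 (2.16 CPM) and GATA3 (0 CPM) were lowest. KRT7 was at 3.16 to 4.77 CPM in controls and at 5.73 and 6.06 CPM in SEPHS1 replicates 1 and 2. GATA3 was at 0.41 to 0.60 CPM in controls and at 1.03 and 0.77 CPM in those 2 replicates. Of 6 fibroblast markers, COL3A1, POSTN, LUM and DCN were under 1 CPM, while the sum over all 6 was 1565 to 1807 CPM in controls and 1309 to 1549 CPM after SEPHS1 siRNA, nearly all of it COL1A1 and COL1A2.

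Of 29 genes tested from a list of primed and core pluripotency factors, 1 rose and 2 fell, and the list's median log2 fold change was 0.00. The shares called over all genes were 0.602% higher and 0.931% lower. TERF1, a telomere-binding protein, was at 102 and 164 with Luciferase siRNA and 123 and 205 with Control siRNA, and at 225, 243 and 287 CPM after SEPHS1 siRNA. Its log2 fold change was 0.77 (SE 0.16, adjusted p = 0.00764), and that call was lost without SEPHS1 replicate 3, against the Control siRNA alone, or against replicate 2 of the controls. ZSCAN10, a zinc finger factor of the stem cell network, was at 276 ± 40.4 CPM (SD, n = 3) against 403 ± 26.6 (SD, n = 4). It fell by 0.54 on the log2 scale (adjusted p = 0.0128), a call that was lost without SEPHS1 replicate 1 or 2. SALL2, a zinc finger relative of SALL4, fell by 0.46 (adjusted p = 0.017), and lost its call without Luciferase replicate 1 or without SEPHS1 replicate 1 or 3. MIR302CHG, the host transcript of the miR-302 cluster that marks pluripotent cells, is no member of that list and was named after its values were seen. It rose by 1.001 (SE 0.22, adjusted p = 0.0119), from 15.5 to 30.8 CPM, and lost its call without SEPHS1 replicate 2 and with length and GC content corrected.

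Beside SEPHS1, the falls with the smallest p were in INPP5J, NAV1, NLGN3, TOX2 and MGAT4B. The rule that named these genes already required every SEPHS1 siRNA library to lie outside the control range. INPP5J, an inositol polyphosphate 5-phosphatase (chromosome 22, 31122731 to 31134696, plus strand), was at 12.6 and 15.4 with Luciferase siRNA and 10.3 and 10.4 with Control siRNA and at 1.27, 0.682 and 0.467 CPM after SEPHS1 siRNA. All 3 silenced libraries were far below the lowest control, and the log2 fold change was -3.88 (SE 0.35, adjusted p = 1.81e-08). NLGN3, the synaptic adhesion protein neuroligin 3 (chromosome X, 71144831 to 71171201, plus strand), went from 22.7 and 20.4 with Luciferase siRNA and 24.98 and 18.7 with Control siRNA to 3.57, 7.38 and 5.90 CPM, a change of -1.95 (SE 0.24, adjusted p = 5.55e-06). The groups did not overlap, and the DSCC1 siRNA libraries stood at 24.8, 25.8 and 25.2 CPM. NAV1, the cytoskeletal protein neuron navigator 1 (chromosome 1, 201622885 to 201826969, plus strand), was at 159.7 and 125 with Luciferase siRNA and 157 and 119 with Control siRNA and at 55.4, 48.8 and 51.2 CPM, a change of -1.44 (SE 0.15, adjusted p = 2.78e-07). TOX2, an HMG-box factor (chromosome 20, 43914864 to 44069616, plus strand), was at 31.3 and 24.2 with Luciferase siRNA and 27.8 and 19.2 with Control siRNA and at 7.93, 9.34 and 4.61 CPM, a change of -1.80 (SE 0.23, adjusted p = 1.56e-05). Neither gene overlapped between the groups. MGAT4B, a glycosyltransferase that branches N-glycans (chromosome 5, 179797597 to 179806952, minus strand), was at 82.04 and 65.5 with Luciferase siRNA and 79.5 and 70.3 with Control siRNA and at 38.3, 39.2 and 26.8 CPM, a change of -1.10 (SE 0.14, adjusted p = 1.67e-05). These 5 genes were called lower in each of the 21 alternative settings.

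**Figure D1:**
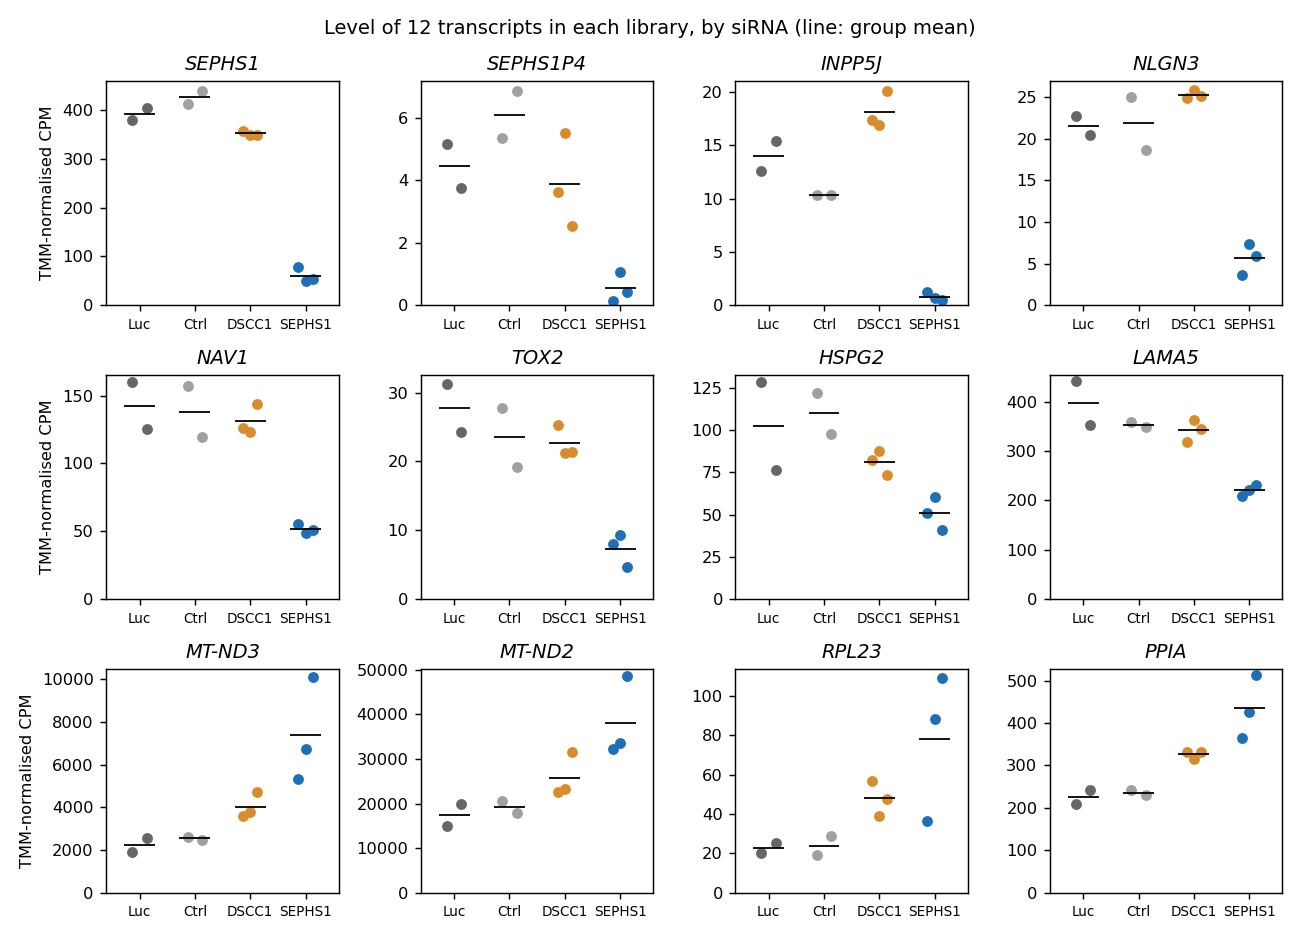
TMM-normalised CPM (vertical axes, starting at 0) of 12 transcripts in each Luciferase, Control, DSCC1 and SEPHS1 siRNA library, 1 point per library with a line at the group mean. SEPHS1, SEPHS1P4, INPP5J, NLGN3, NAV1, TOX2, HSPG2 and LAMA5 are lower in the 3 SEPHS1 siRNA libraries than in any control, and MT-ND3, MT-ND2, RPL23 and PPIA are higher, with the DSCC1 siRNA mean between the other means in these 4.

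In all, 24 of the 184 falling genes kept their call in every setting that tested them. Beside SEPHS1, SEPHS1P6 and the 5 above, they include BOK, a BCL2 family effector of apoptosis (log2 fold change -1.01), TNFRSF1A, the main receptor for TNF (-0.93), ZDHHC8, a protein palmitoyltransferase (-0.999), and GNAL, a G protein alpha subunit of olfactory signalling (-1.51). PALLD, an actin-organising protein, was at 32.5 and 23.2 with Luciferase siRNA and 23.1 and 25.3 with Control siRNA, and at 10.2, 13.2 and 4.85 CPM after SEPHS1 siRNA (-1.46). TNFRSF1A was at 69.6 and 60.97 with Luciferase siRNA and 70.1 and 63.6 with Control siRNA, and at 30.3, 33.4 and 40.1 CPM after SEPHS1 siRNA, so both genes were apart in every library. SYNE4, a nuclear envelope linker, changed by -1.38, ZNF777 by -1.32, and CA14, a membrane carbonic anhydrase, by -1.06. The genes of this paragraph were chosen for keeping their call, after their values were seen.

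Several large falls rest on few counts or on a wide control spread. IKBKE, an IKK-related kinase of innate immune signalling, was at 5.05 and 5.12 with Luciferase siRNA and 9.72 and 5.65 with Control siRNA and at 0.930, 0.0427 and 0.467 CPM, with a log2 change of -3.71 (SE 0.63, adjusted p = 0.000758). MCHR1, a receptor for melanin-concentrating hormone, changed by -3.34 (SE 0.59, adjusted p = 0.00102), TRANK1 by -3.03 (SE 0.48, adjusted p = 0.000304), the metalloproteinase MMP19 by -2.62 (SE 0.44, adjusted p = 0.000555), and the endothelial nitric oxide synthase NOS3 by -2.60 (SE 0.40, adjusted p = 0.000276). Each of these 5 had silenced libraries of under 3 CPM, kept its call whichever library was left out, and lost it with limma-voom, MCHR1 also in a fit of only the compared groups. HMCN2, which encodes a hemicentin of the extracellular matrix, changed by -2.51 (SE 0.50, adjusted p = 0.00498), and lost its call with limma-voom and against the Control siRNA alone. ZHX3, a zinc finger and homeobox protein, changed by -2.30 (SE 0.54, adjusted p = 0.0211), a call lost without SEPHS1 replicate 1 or 3, with limma-voom, against Luciferase siRNA alone and in a fit of only the compared groups. Of the 184 falling genes, 10 had no count in any SEPHS1 library.

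The control libraries differed among themselves in TNC and VIM. TNC, the matrix glycoprotein tenascin C, was at 52.5 and 7.96 with Luciferase siRNA and 41.6 and 8.13 with Control siRNA and at 6.02, 3.41 and 0.175 CPM after SEPHS1 siRNA. Replicate 1 of each control was far above replicate 2, and the silenced libraries were below all 4. Its change of -3.07 (SE 0.79, adjusted p = 0.0394) did not pass the test against replicate 2 of the controls or without any 1 of the SEPHS1 libraries. It was also lost with DESeq2, limma-voom, a stricter filter, either control siRNA alone, a fit of only the compared groups, and length and GC content corrected. VIM, the intermediate filament vimentin, was at 757 and 319 with Luciferase siRNA and 640.1 and 316 with Control siRNA and at 305, 290.4 and 254 CPM. Its change of -0.84 (SE 0.19, adjusted p = 0.0128) was -0.17 against replicate 2 of the controls, where it was not called, and was lost without SEPHS1 replicate 2 or 3, with DESeq2, with limma-voom, against the Control siRNA alone and in a fit of only the compared groups. Across genes, same-numbered Luciferase and Control libraries deviated together from their group means (r = 0.338, the same for both numbers since each group has 2 libraries), so the 4 controls may not be fully independent. Whether a batch separates the control replicates was not tested, since the labels name none.

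TAGLN, CNN1, FLNA and VCL, genes of actin and cell adhesion, were lower by less. TAGLN, the actin-binding protein transgelin, was at 877 and 675 with Luciferase siRNA and 845 and 604 with Control siRNA and at 436, 519 and 483 CPM, with a log2 change of -0.65 (SE 0.11, adjusted p = 0.000758). Of the 21 alternatives, its call was lost against replicate 2 of the controls and in no other. CNN1, which encodes calponin, changed by -0.68 (SE 0.14, adjusted p = 0.00653), from 69.6 ± 9.46 to 43.4 ± 1.01 CPM. FLNA, the actin crosslinker filamin A, and VCL, the focal adhesion protein vinculin, changed by -0.37 (SE 0.08, adjusted p = 0.0144) and -0.43 (SE 0.10, adjusted p = 0.0252). The calls of FLNA and VCL were lost without Luciferase replicate 1, SEPHS1 replicate 2 or SEPHS1 replicate 3, without 1 of the Control libraries (replicate 2 for FLNA, replicate 1 for VCL), and with length and GC content corrected. All SEPHS1 siRNA libraries lay below all controls in these 4 genes, as they did in 7.76% of all genes. CNN1, FLNA and VCL were named after their values were seen. TAGLN and VIM were the 2 genes called among 22 tested genes of a fibroblast and mesenchyme list, whose median was -0.06. Over all genes, 0.931% were called lower. None of 20 YAP targets was called by edgeR's quasi-likelihood test, although 8 had an unadjusted p under 0.05, all lower, and DESeq2 called 1 lower and limma-voom none. Of all 19772 genes tested, 1461 were lower at that unadjusted threshold. The median of the YAP targets was -0.30.

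Of 18 basement membrane genes tested, 5 were called lower, against 0.931% of all genes, and none higher, with a median log2 fold change of -0.48 against -0.02 for all genes. Against DSCC1 siRNA the median was -0.22 with 1 called lower, and DSCC1 siRNA itself stood at a median of -0.17 against the controls. HSPG2, the heparan sulfate proteoglycan perlecan (chromosome 1, 21822245 to 21937297, minus strand), was at 128 and 76.6 with Luciferase siRNA and 122 and 97.9 with Control siRNA and at 50.9, 60.6 and 40.7 CPM, a change of -1.06 (SE 0.19, adjusted p = 0.000996). LAMA5, the alpha chain of laminin-511 (chromosome 20, 62307955 to 62367312, minus strand), was at 442 and 352 with Luciferase siRNA and 358 and 349 with Control siRNA and at 209, 221 and 230.3 CPM, a change of -0.77 (SE 0.13, adjusted p = 0.000605). Neither gene overlapped between the groups, and both were called in each of the 21 settings. All SEPHS1 libraries lay below the controls for 7.76% of all genes. LAMB2, the laminin beta 2 chain, changed by -0.63 (SE 0.15, adjusted p = 0.016), AGRN, the proteoglycan agrin, by -0.55 (SE 0.13, adjusted p = 0.0248), and COL18A1, the collagen that holds endostatin, by -0.47 (SE 0.12, adjusted p = 0.0342). These 3 were lost in 7, 8 and 10 of the 21 settings, among them without Luciferase replicate 1 and without SEPHS1 replicate 3. The other chains did not all move. LAMC1 was at 57.5 ± 15.3 CPM (SD, n = 3) against 61.04 ± 2.13 (SD, n = 4) and LAMB1 at 20.1 ± 2.57 CPM (SD, n = 3) against 24.4 ± 4.23 (SD, n = 4), while COL4A1 and COL4A2 stood at log2 fold changes of -0.17 and -0.49 (adjusted p = 0.646 and 0.143). Without SEPHS1 replicate 3 or without Luciferase replicate 1, 2 of the 18 were called, and without SEPHS1 replicate 2, 3 were. It was 2 also with length and GC content corrected, where the median was -0.31.

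Among 36 axon guidance ligands and receptors, 3 were called lower, against 0.931% of all genes, and none higher, with a median of -0.21 against -0.02 for all genes. Against DSCC1 siRNA the median was -0.11 with none called, and DSCC1 siRNA itself stood at a median of -0.20 against the controls. EFNB2, the transmembrane ligand ephrin-B2, was at 14.2 and 8.60 with Luciferase siRNA and 13.1 and 10.001 with Control siRNA and at 6.41, 3.58 and 2.80 CPM, with a log2 change of -1.42 (SE 0.32, adjusted p = 0.0137), and was lost without SEPHS1 replicate 2 or 3. PLXNA1, a semaphorin co-receptor, changed by -0.54 (SE 0.12, adjusted p = 0.0149), lost without Luciferase replicate 1, Control replicate 2, or SEPHS1 replicate 2 or 3. EFNA1, the ephrin-A1 ligand, had 36, 45, 40 and 58 counts in the control libraries and none in any SEPHS1 siRNA library. Against a floor of 3 counts per library that is at least 11.4-fold lower (adjusted p = 0.0408), a call lost when any library but Luciferase replicate 2 was left out. Without SEPHS1 replicate 2 or 3, none of the 36 was called by edgeR's quasi-likelihood test, while 1 was without Luciferase replicate 1 and 6 were without Luciferase replicate 2. With all libraries, DESeq2 called 3 lower and limma-voom 2. No member was called against either control siRNA alone or against replicate 2 of the controls. With length and GC content corrected, 1 was called lower (EFNB2), and the median was -0.14.

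Messages of the mitochondrial genome rose. That genome encodes 13 respiratory chain proteins, whose messages are polyadenylated and so enter poly(A) libraries. Of these 13, 11 rose, against 0.602% of all genes, and none fell. The median log2 fold change was 0.73, and 12 lay above the control range, against 5.25% of all genes. MT-ND2 (chromosome M, 4470 to 5511, plus strand), a subunit of complex I, was at 15022 and 19868 with Luciferase siRNA and 20489 and 17966 with Control siRNA and at 32293, 33513 and 48578 CPM. SEPHS1 replicate 3 was the highest, and no silenced library overlapped the controls, with a log2 change of 1.06 (SE 0.14, adjusted p = 2.07e-05). MT-ND3 (chromosome M, 10059 to 10404, plus strand) was at 1909 and 2578 with Luciferase siRNA and 2629.8 and 2486 with Control siRNA and at 5339, 6748 and 10086 CPM, a change of 1.63 (SE 0.15, adjusted p = 2.93e-08). MT-ATP8, an ATP synthase subunit, was at 3568 and 5274 with Luciferase siRNA and 4595 and 5070.1 with Control siRNA and at 9339.9, 10091 and 14652 CPM, with a log2 change of 1.30 (SE 0.16, adjusted p = 5.38e-06). The other called members were MT-ATP6 (0.95), MT-ND1 (0.78), MT-ND5 (0.73), MT-CYB (0.72), MT-CO2 (0.66), MT-ND4 (0.65), MT-CO3 (0.52) and MT-ND4L (0.51). MT-CO1 was at 0.41 (adjusted p = 0.0842), and MT-ND6, the one member read from the other strand, had no more than 0.07 CPM in any control and 0, 0 and 1.75 CPM after SEPHS1 siRNA, too few counts for a fold. Both ribosomal RNAs, MT-RNR1 (0.61) and MT-RNR2 (0.55), and the tRNAs MT-TF (2.37) and MT-TI (1.14) were also called. MT-RNR1, MT-RNR2 and MT-TF lost their calls without SEPHS1 replicate 3, and MT-TI, at 1.14, lost its call against the Control siRNA alone and with length and GC content corrected (0.49, adjusted p = 0.316).

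The size of the rise differed between libraries. Over the 13 members the median log2 ratio to the control mean was 0.50 and 0.55 in SEPHS1 replicates 1 and 2 and 1.06 in replicate 3. Without replicate 3, 5 of 12 tested members were called with a median of 0.54. Against the Control siRNA alone 5 of 13 were called, with DESeq2 7 and with length and GC content corrected 7. MT-ND1, MT-ND2, MT-ND3, MT-ATP6 and MT-ATP8 kept their calls in each of the 20 settings that tested them. Counts from the mitochondrial chromosome made up 38.7, 38.9 and 45.5% of the SEPHS1 siRNA libraries (41.1 ± 3.86%, SD, n = 3) and 27.9 to 33.4% of the controls (31.2 ± 2.54%, SD, n = 4). By an exact two-sided permutation test of 3 against 4 libraries, p was 0.0286, the smallest that 35 splits allow, and 0.0571 after Benjamini-Hochberg adjustment over 6 library measures. The share was 35.9 ± 2.95% with DSCC1 siRNA (n = 3). The number of genes with at least 10 counts was 15213 ± 627 after SEPHS1 siRNA and 16224 ± 414 in the controls, and whether such library differences take part in the rise was not tested.

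Of 26 tested pseudogenes named after a mitochondrial protein or ribosomal RNA gene, 11 were called higher (against 0.602% of all genes) and none lower, with a median log2 fold change of 0.87. They were grouped by their names, after their values were seen. MTATP8P1 (chr1:633535-633741, plus strand, GRCh38), a nuclear copy of MT-ATP8, is shown with its parent because it is 97.6% identical over 207 bases. Both are from the GENCODE release 29 transcripts, and capitals mark the 5 differences.

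MT-ATP8: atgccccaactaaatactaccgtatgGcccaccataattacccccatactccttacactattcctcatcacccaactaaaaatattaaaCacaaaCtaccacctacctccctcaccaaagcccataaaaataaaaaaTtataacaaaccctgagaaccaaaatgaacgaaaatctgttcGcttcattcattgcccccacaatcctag

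MTATP8P1: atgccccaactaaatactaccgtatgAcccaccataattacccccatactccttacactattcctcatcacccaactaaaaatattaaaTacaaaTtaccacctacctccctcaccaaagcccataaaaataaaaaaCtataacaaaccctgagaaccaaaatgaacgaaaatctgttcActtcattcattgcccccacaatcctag

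MTATP8P1 was at 7.27 and 8.28 with Luciferase siRNA and 11.1 and 9.46 with Control siRNA and at 19.9, 25.4 and 45.7 CPM, a change of 1.76 (SE 0.27, adjusted p = 0.000292). MTND2P28, 98.4% identical to MT-ND2 with a run of 266 bases without a difference, changed by 1.12 (SE 0.14, adjusted p = 6.43e-06). MTND4P35, 89.7% identical to MT-ND4, changed by 2.02 (SE 0.29, adjusted p = 6.58e-05), and MTCO1P40, 96.0% identical to MT-CO1, by 1.14 (SE 0.17, adjusted p = 0.000157). Their counts may come in part from mitochondrial reads, which these counts cannot separate, so they are uncertain as nuclear transcripts.

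A share of the ribosomal protein messages also rose. Of 65 genes for proteins of the cytosolic ribosome, 17 were called higher, against 0.602% of all genes, and none lower, with a median of 0.29. Of the 65, 35 lay above the control range and 3 below it, against 5.25% and 7.76% of all genes. RPL23 was at 20.2 and 25.2 with Luciferase siRNA and 19.1 and 28.8 with Control siRNA and at 36.4, 88.4 and 109 CPM, with a log2 change of 1.74 (SE 0.23, adjusted p = 1.56e-05). SEPHS1 replicate 1 was the lowest of the 3 and still above every control. RPS14 was at 112 and 120.3 with Luciferase siRNA and 116 and 138 with Control siRNA and at 167, 209 and 195 CPM. Its log2 change was 0.65 (SE 0.12, adjusted p = 0.00121), and RPL18 changed by 0.64 (SE 0.11, adjusted p = 0.00102). RPL23, RPS14, RPL18, RPL14 (0.66) and RPL28 (0.58) kept their calls in each of the 21 settings. So did RPL41 (0.67, SE 0.11, adjusted p = 0.000475) and RPL23A (0.56, SE 0.10, adjusted p = 0.000758). RPL41 and RPL23A are not among the 65 and were named after their values were seen. Across settings 7 to 22 of the 65 were called higher, with 11 without Luciferase replicate 1 or Control replicate 1, 9 without Control replicate 2, 8 without SEPHS1 replicate 2, 10 without SEPHS1 replicate 3, and 11 with length and GC content corrected. DESeq2 and the length and GC correction also called 1 lower. Ribosomal protein genes have many processed copies. RPL23AP42 (log2 fold change 0.61) and RPL23AP74 (1.20) are 99.6% and 98.3% identical to the RPL23A transcript over 471 bases, so counts may be split among them. The listed ribosomal protein genes together held 2.21 ± 0.219% of the counts after SEPHS1 siRNA and 2.42 ± 0.156% in the controls. That share is of a total that includes the larger mitochondrial share.

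Rises outside these lists included PPIA, ATP5MF, GAP43 and MAML2. PPIA, the peptidyl-prolyl isomerase cyclophilin A (chromosome 7, 44796680 to 44824564, plus strand), was at 210.3 and 242 with Luciferase siRNA and 241 and 229.5 with Control siRNA and at 365, 425 and 513 CPM, with a log2 change of 0.91 (SE 0.11, adjusted p = 4.1e-06). ATP5MF, the f subunit of ATP synthase, was at 9.68 and 9.87 with Luciferase siRNA and 12.8 and 11.4 with Control siRNA and at 20.2, 30.3 and 50.6 CPM, with a log2 change of 1.63 (SE 0.23, adjusted p = 4.86e-05). Both were called in each of the 21 settings, and in both SEPHS1 replicate 3 was the highest library. GAP43, a growth cone protein and 1 of 21 tested neuron genes, changed by 1.20 (SE 0.24, adjusted p = 0.00554), with 23.7, 19.9 and 18.3 CPM against 9.03 ± 1.46 (SD, n = 4), and lost its call against Luciferase siRNA alone or replicate 2 of the controls. MAML2, a coactivator of NOTCH, changed by 1.28 (SE 0.29, adjusted p = 0.0171), and was lost without Control replicate 1 or SEPHS1 replicate 3. Among genes named after their values were seen, the glutathione transferases GSTP1 (0.52) and MGST1 (0.64), the splicing protein SNRPD2 (0.73), the RNA polymerase subunit POLR2L (0.77) and the complex I subunit NDUFA3 (0.85) rose in every setting. NDUFA3 and ATP5MF are not on the list of nuclear respiratory chain genes, of whose 40 tested members NDUFS3 was the 1 called, with a log2 change of 0.65 (SE 0.17, adjusted p = 0.0438), a call lost without SEPHS1 replicate 2 or 3 or without Luciferase replicate 1 or either Control library. The median of those 40 was 0.16, and 0.602% of all genes were called higher.

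No selenoprotein message passed the main test. Of 25 listed, 23 were tested and none was called by edgeR's quasi-likelihood test. At an unadjusted p under 0.05, 1 was higher and 4 were lower, against 1068 and 1461 of all 19772 genes. DESeq2 called SELENOF higher and SELENON lower, and limma-voom called none. The median log2 fold change was -0.21, and it ranged from -0.28 without SEPHS1 replicate 3 to -0.03 against replicate 2 of the controls. SELENOF was also called higher by edgeR's test with no filter on low counts (adjusted p = 0.0409) and with a stricter filter (adjusted p = 0.04725). The same held without Control replicate 2 (adjusted p = 0.0477). SELENOF, a selenoprotein of protein folding in the endoplasmic reticulum, was at 17.9 and 17.2 with Luciferase siRNA and 12.7 and 17.7 with Control siRNA and at 26.6, 24.99 and 29.7 CPM. All 3 silenced libraries were above the controls, at 0.73 (SE 0.20, adjusted p = 0.0643) on the log2 scale, and against DSCC1 siRNA, at 9.80, 14.2 and 14.7 CPM, it was called higher at 1.07 (SE 0.22, adjusted p = 0.0204). GPX1, a cytosolic glutathione peroxidase, was at 237 ± 24.2 CPM (SD, n = 3) against 276 ± 19.2 (SD, n = 4), with a log2 change of -0.22 (SE 0.10, adjusted p = 0.369), and GPX4, which reduces lipid peroxides, was at 129 ± 17.9 CPM (SD, n = 3) against 112 ± 6.70 (SD, n = 4), with a log2 change of 0.21 (SE 0.13, adjusted p = 0.502). TXNRD1, the cytosolic thioredoxin reductase, was at 33.4 ± 3.52 CPM (SD, n = 3) against 29.1 ± 4.29 (SD, n = 4) and TXNRD2, its mitochondrial relative, at 2.02 ± 2.44 CPM (SD, n = 3) against 2.66 ± 1.19 (SD, n = 4). SELENON and SELENOM lay below the control range at -0.31 and -0.55 (adjusted p = 0.14 and 0.32). SELENOW was at -0.21, SELENOT at 0.35, GPX3 at -0.15 and MSRB1 at -0.19.

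Of 10 genes that make and insert selenocysteine, 1 rose and SEPHS1 fell, with a median of -0.03. Over all genes, 0.602% were called higher and 0.931% lower. SARS1, the seryl-tRNA synthetase that charges the selenocysteine tRNA with serine, was at 58.7 ± 3.37 CPM (SD, n = 3) against 40.3 ± 2.53 (SD, n = 4), with a log2 change of 0.54 (SE 0.14, adjusted p = 0.0434). The SARS1 call was lost when any 1 of the 7 libraries was left out. SECISBP2, which binds the SECIS element of selenoprotein messages, was at 35.1 ± 5.25 CPM (SD, n = 3) against 26.3 ± 5.67 (SD, n = 4), with a log2 change of 0.43 (SE 0.18, adjusted p = 0.288), and EEFSEC, the elongation factor for selenocysteine, at 15.9 ± 2.02 CPM (SD, n = 3) against 15.9 ± 3.29 (SD, n = 4), with a log2 change of 0.01 (SE 0.21, adjusted p = 1). PSTK and SEPSECS, which act before selenophosphate is used and at the step that uses it, were at most 1.91 and 2.41 CPM in any of these libraries, and no difference was detectable at that depth. None of 26 NRF2 targets was called by edgeR's quasi-likelihood test, with 3 higher and 1 lower at an unadjusted p under 0.05, 1 called higher by DESeq2 and none by limma-voom. None of 20 other antioxidant enzymes was called either, with 3 higher at an unadjusted p under 0.05, 1 by DESeq2 and none by limma-voom. Over all 19772 genes, 1068 were higher and 1461 lower at that unadjusted threshold. The glutathione transferases GSTP1 and MGST1, given above as called higher, are on neither list.

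**Figure D2:**
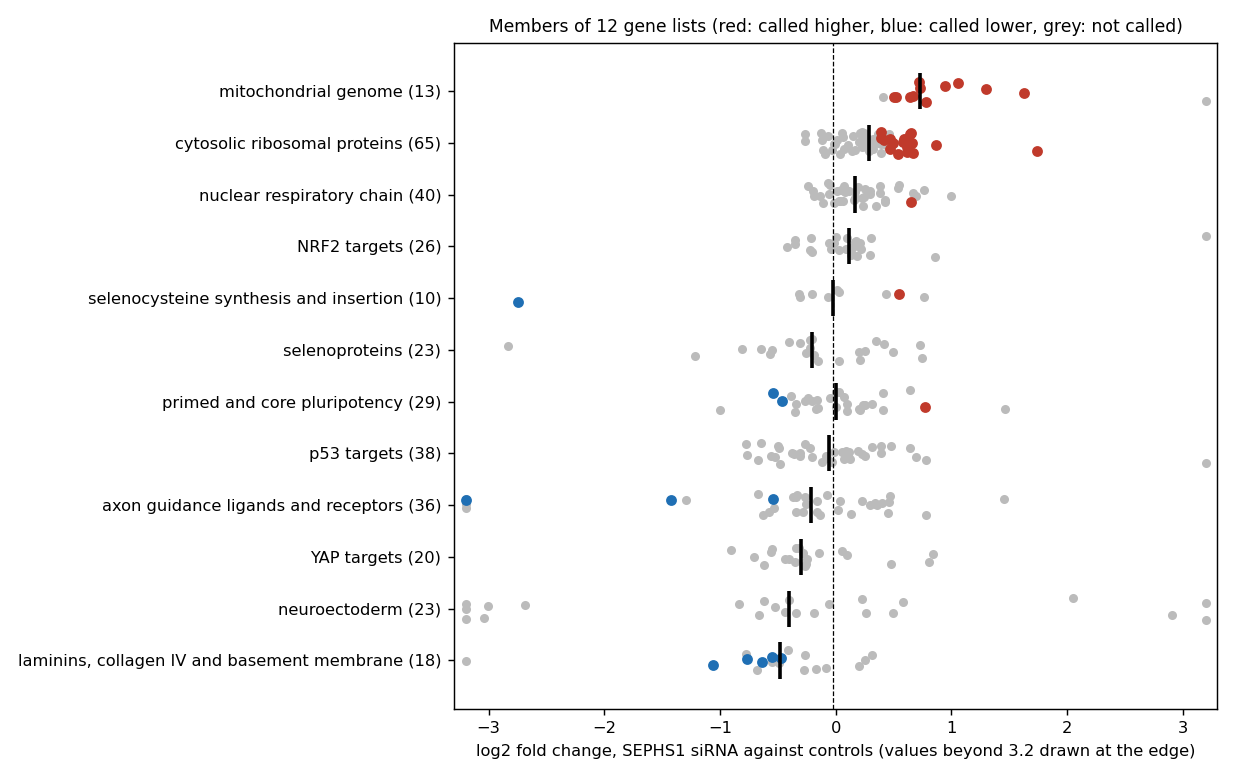
Log2 fold change of SEPHS1 siRNA against both control siRNAs (horizontal axis) for the tested members of 12 gene lists, with the number tested in brackets, 1 point per gene, a bar at the list's median and a dashed line at the median of all genes (-0.02). Mitochondrial genome members lie furthest to the right (median 0.73) and basement membrane members to the left (median -0.48), and 13 members beyond 3.2 are drawn at the edge.

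Of the 40 gene lists examined, 20 held no called gene by edgeR's quasi-likelihood test. They have 423 distinct tested genes with a median of -0.05. Of these genes, 35 were higher and 45 lower at an unadjusted p under 0.05, against 1068 and 1461 of all 19772 genes. Counted per list, DESeq2 called 7 higher and 7 lower, and limma-voom 1 higher. Beside the selenoprotein, NRF2, antioxidant and YAP lists they covered p53 targets (38 tested, median -0.06), the unfolded protein response (20, -0.06), heat shock (15, -0.07), the response to double-stranded RNA and interferon (17, 0.27), glycolysis and hypoxia (36, -0.11), amino acid transporters (24, -0.13), mitosis (35, 0.09), DNA methylation and Polycomb (24, 0.05), and FGF feedback and immediate early genes (25, -0.16). BMP targets (13, -0.31), WNT targets (17, -0.38), epithelial junctions (15, -0.05), endoderm (16, 0.12), trophoblast and amnion (9, 0.16) and naive pluripotency (12, -0.14) also held none. Nor did neuroectoderm (23 tested, median -0.41, or -0.34 with genes without a count set at their bound).

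One or a pair of members were called in each of the remaining lists, against 0.602% of all genes called higher and 0.931% called lower. WNT3, 1 of 15 primitive streak genes (median -0.26), was at 0.489, 0.427 and 0 CPM against 2.24 ± 1.67 in controls, with a log2 change of -2.76 (SE 0.73, adjusted p = 0.047), lost without Control replicate 1 or any 1 SEPHS1 library. ETS1, 1 of 13 neural crest genes (median -0.05), changed by -1.07 (SE 0.26, adjusted p = 0.0242), lost without Control replicate 2 or without SEPHS1 replicate 2 or 3. NKX2-5, a heart field factor, and ACTC1, cardiac actin, fell among 15 mesoderm and heart genes (median -0.22), with changes of -1.10 (SE 0.28, adjusted p = 0.0348) and -0.37 (SE 0.10, adjusted p = 0.0434). Both were lost without any 1 of the SEPHS1 libraries and without Luciferase replicate 1, and ACTC1 also without Control replicate 1. MCM10, a replication initiation factor and 1 of 42 genes of DNA replication (median -0.03), changed by -0.70 (SE 0.18, adjusted p = 0.0402), lost without Control replicate 2 or SEPHS1 replicate 1 or 3. FDFT1 and MSMO1, enzymes of cholesterol synthesis (23 tested, median 0.02), rose by 0.37 (SE 0.09, adjusted p = 0.0362) and 0.45 (SE 0.12, adjusted p = 0.047), and MAT2A, which makes S-adenosylmethionine (1 of 24 one-carbon and amino acid enzymes, median 0.03), by 0.42 (SE 0.10, adjusted p = 0.0288). FDFT1 was lost without any 1 of the 7 libraries, MSMO1 without any but Luciferase replicate 2, and MAT2A without any but Luciferase replicate 2 and SEPHS1 replicate 1. BOK was the call among 23 apoptosis regulators (median -0.03), SARS1 among 35 ATF4 targets (0.04), MAML2 among 23 NOTCH genes (-0.31), and TNC among 22 proteoglycans and integrins (-0.07).

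The DSCC1 siRNA group shares the time of 72 h and the kind of siRNA with the SEPHS1 group, and the direct contrast called 53 genes (0.268% of those tested), 6 higher (0.0303%) and 47 lower (0.238%) in SEPHS1 siRNA cells. Of the 184 genes lower than in controls, 43 were also lower than with DSCC1 siRNA, which is 43 of the 47, and of the 119 higher genes, 2 were also higher, of the 6. Both contrasts use the same SEPHS1 libraries, so the counts are not independent. INPP5J was at 17.3, 16.9 and 20.04 CPM with DSCC1 siRNA and differed by -4.47 (SE 0.37, adjusted p = 1.22e-09). NLGN3 differed by -2.17 (SE 0.25, adjusted p = 3.62e-06), NAV1 by -1.34 (SE 0.16, adjusted p = 4.89e-06), and TRANK1 by -3.09 (SE 0.49, adjusted p = 0.000979). LAMA5, at 342 ± 21.9 CPM (SD, n = 3) with DSCC1 siRNA, differed by -0.64 (SE 0.14, adjusted p = 0.0263), and TAGLN by -0.73 (SE 0.12, adjusted p = 0.00102). HSPG2 differed by -0.68 (SE 0.20, adjusted p = 0.162) and was not called there. CA14, SYNE4, ZDHHC8, BOK and TNFRSF1A differed by -1.31, -1.60, -0.97, -0.87 and -0.81 on the log2 scale, and all 5 were called lower. The number of lower genes was 20 to 23 when any 1 of the DSCC1 libraries was left out, and the number of higher genes was 1 without DSCC1 replicate 1, 2 without replicate 2, and 3 without SEPHS1 replicate 3.

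Of the genes higher than with DSCC1 siRNA, 2 were also higher than in controls, MT-ND3 and STK4. The 6 higher genes of this contrast became 24 with the replicate number as a block, 32 with DESeq2, 31 with no filter on low counts, 3 with limma-voom and 1 with length and GC content corrected. MT-ND3 was at 3596, 3778 and 4739.7 CPM with DSCC1 siRNA and differed by 0.87 (SE 0.16, adjusted p = 0.00813). STK4, the Hippo kinase MST1, was at 34.2 and 42.5 with Luciferase siRNA and 42.6 and 38.3 with Control siRNA, at 61.7, 62.5 and 53.9 CPM with SEPHS1 siRNA and at 27.8, 32.3 and 32.02 CPM with DSCC1 siRNA. It changed by 0.59 (SE 0.14, adjusted p = 0.0232) against controls and by 0.95 (SE 0.15, adjusted p = 0.00102) against DSCC1, and its first call was lost without Luciferase replicate 1, Control replicate 2 or SEPHS1 replicate 1 or 2. Over the 13 mitochondrial genes, the median difference from DSCC1 siRNA was 0.35 with 1 called, and over the 65 ribosomal protein genes it was 0.10 with none called. DSCC1 siRNA itself stood above the same controls by a median of 0.46 and 0.11 in these lists, and 9 genes (0.0455% of those tested) were called in that contrast. RPL23 was at 57.1, 39.3 and 47.5 CPM with DSCC1 siRNA and differed from SEPHS1 siRNA by 0.70 (SE 0.24, adjusted p = 0.286). PPIA was at 332, 316 and 332 CPM and differed by 0.41 (SE 0.12, adjusted p = 0.15), and POLR2L by -0.13 (SE 0.13, adjusted p = 0.812). TNC differed by -0.80 (SE 0.81, adjusted p = 0.816) and was not called.

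**Figure D3:**
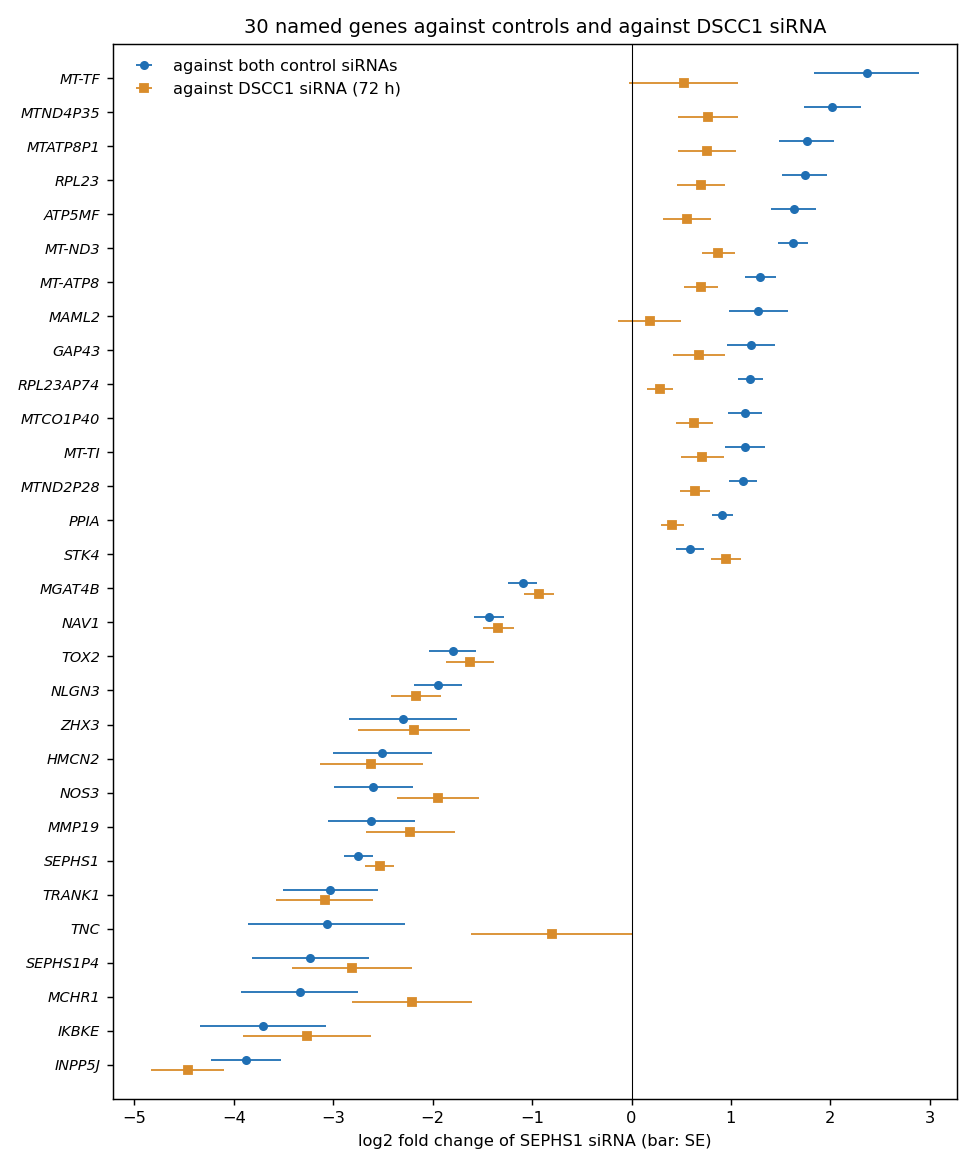
Log2 fold change of SEPHS1 siRNA (horizontal axis, bar is the SE) for 30 named genes, against both control siRNAs (blue circles) and against DSCC1 siRNA (orange squares). The falling genes drawn keep most of their size against DSCC1 siRNA except TNC (-3.07 and -0.80), while rising genes such as RPL23 (1.74 and 0.70) lie nearer 0, apart from STK4 (0.59 and 0.95). Some of the 30 were chosen for a call in the same direction in both contrasts. Their size against DSCC1 siRNA therefore follows in part from that choice.

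Genes called higher were shorter than genes called lower. The longest transcript of the 87 protein-coding genes called higher had a median of 1921 bases and a GC content of 47.7%. In the 174 called lower it was 4589 bases and 57.5%, and in the 14316 others with a length it was 3676 bases and 49.1%. Over 5240 protein-coding genes of at least 4 log2 CPM, the median log2 fold change was 0.08 in the shortest of 5 bins of nearly equal size, -0.02, -0.03 and -0.09 in the next 3 and -0.14 in the longest. In the shortest bin 50 genes were called higher and 13 lower, and in the longest 8 and 40. Spearman's rho with length was -0.264 and with GC content -0.19, across genes of the same libraries, which are not independent replicates. Against DSCC1 siRNA it was -0.148 with length and -0.303 with GC content. For DSCC1 siRNA against the same controls it was -0.203 with length and 0.121 with GC content. The medians of that contrast were 0.07 in the shortest bin and -0.05 in the longest. The slope was present in each SEPHS1 siRNA library and shallowest in replicate 1. With trends of length and GC content removed, 94 genes were called higher and 106 lower, and of the original calls 77 of 119 and 97 of 184 were among them. INPP5J, NLGN3, NAV1, TOX2, MGAT4B, HSPG2 and LAMA5 were called with this correction, as were MT-ND2, MT-ND3, RPL23 and PPIA. The part that RNA length or library quality has in the other calls was not tested.

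**Figure D4:**
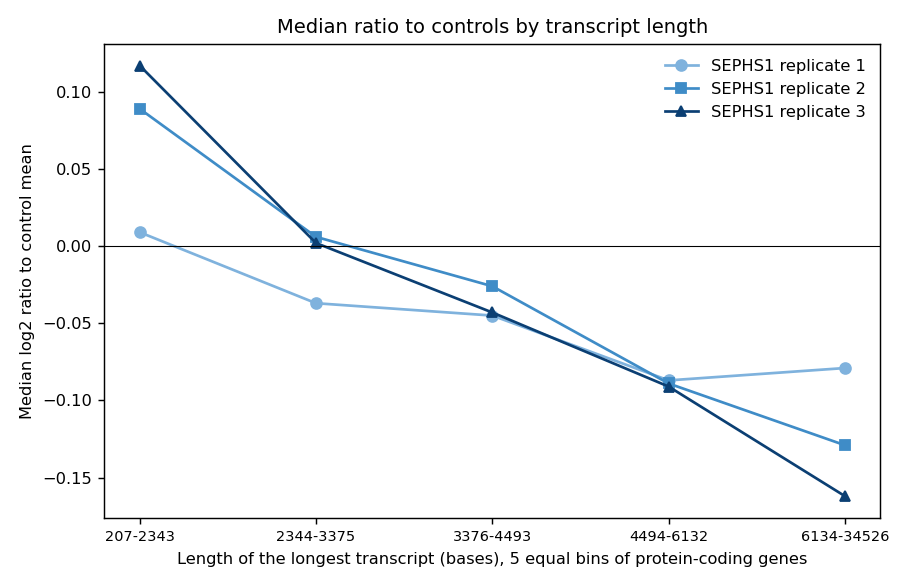
Median log2 ratio of each SEPHS1 siRNA library to the control mean (vertical axis, 1 line per library) in 5 bins, nearly equal in size, of 5240 protein-coding genes by the length of the longest transcript in bases (horizontal axis). Ratios run from 0.009 to 0.117 in the shortest bin and from -0.079 to -0.162 in the longest.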

How the data were processed

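H9 cells of 6 siRNA groups gave 16 poly(A) RNA libraries (Lexogen SENSE kit, 80 bp single-end reads, per the labels' protocols). STAR 2.4.0.1 and HTSeq 0.9.1 are named in the submitters' processing notes, and the authors deposited whole-number read counts per Ensembl gene, 60675 identifiers in all. The genome build and annotation behind those counts and the strand setting are not given in the sources used here. Names, positions and transcript sequences were taken from GENCODE release 29 (GRCh38) or a gene name table, which named 56558 + 497 identifiers.

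Genes were filtered with filterByExpr (minimum count 10), scaled by TMM and fitted in edgeR 4.0.16 by quasi-likelihood over all 16 libraries. SEPHS1 siRNA was contrasted with the mean of the 2 control siRNAs and with DSCC1 siRNA, with p-values adjusted by Benjamini-Hochberg over 19772 genes. SE is the log2 fold change divided by the root of F. Per-library ratios used a pseudocount of 0.5 CPM. DESeq2 1.42.0, limma 3.58.1 and the other settings named in the closing section were alternatives. The code was tested on simulated data. A floor of 3 counts was 0.102 to 0.175 CPM, for counting error only. Libraries of a group differed by more than counting noise, and the labels call them independent biological replicates.

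The members and the 40 gene lists (953 distinct genes) were chosen with earlier results of these data known. Named genes are SEPHS1, SEPHS2, POU5F1, NANOG and SOX2, then, among called genes with a symbol, at least 2 log2 CPM and no overlap with the controls, the 12 largest changes and the 6 smallest p in each direction. Added to these are the 8 largest differences from DSCC1 siRNA in each direction among genes called in both contrasts, the members of the selenoprotein and selenocysteine lists, and of every other list the called members and the 4 with the smallest p. This rule takes 226 genes, of which the text gives a part, and 1 of them is not reported here. Other names are said to be chosen after their values were seen.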

Additional observations from a re-analysis of the deposited data

Results flagged for a closer look

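In 34 named genes the 4 control libraries were examined for a single library that stood apart from the other three. IKBKE was flagged because Control replicate 1 was at 9.72 CPM, while the others were at 5.05 to 5.65 CPM. SOX2 was flagged because Control replicate 1 was at 178.0 CPM, while the others were at 204.0 to 206.9 CPM. Chance flags about 1 in 20 such groups. IKBKE kept its call without Control replicate 1, and SOX2 was not called.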

How the results depend on the processing

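SEPHS1 kept its call and direction under all 21 alternatives, and no named gene that was called changed sign. Of the named genes, 20 changed sign in at least 1 setting, all of them uncalled, among them SEPHS2, NANOG, EEFSEC, GPX3 and TXNRD2. Against both controls, 119 genes were called higher and 184 lower. The counts were 190 and 326 with no filter on low counts, 219 and 300 with DESeq2, 59 and 69 against Luciferase alone, 37 and 66 against Control alone, and 66 and 71 against replicate 2 of the controls. The lower count was also 61 with limma-voom, 104 in a fit of only the compared groups and 106 with length and GC content as offsets (chosen after seeing the data, as was leaving out the mitochondrial chromosome). Leaving out 1 library gave 54 to 161 higher and 81 to 311 lower. DESeq2 size factors gave 134 and 149 and upper quartile scaling 136 and 159. Against DSCC1 siRNA, 6 and 47 became 31 and 120 with no filter, 32 and 156 with DESeq2, 3 and 21 with limma-voom, and 1 and 28 with the offsets. The lower count was 30 with only the compared groups, and leaving out 1 library gave 1 to 8 and 20 to 63. With the replicate number as a block, the counts were 105 and 165 against controls and 24 and 123 against DSCC1 siRNA. Deviations of same-numbered libraries correlated at -0.026 to 0.038 between SEPHS1 and control libraries, at 0.007 to 0.159 between SEPHS1 and DSCC1 libraries, and at 0.338 between Luciferase and Control libraries. As not every pair exceeded 0.1, the samples were not treated as paired. The causes of these shifts were not tested.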
